A study of Mus musculus with 30 samples.

Results

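Expression of 9 genes that respond to temperature or to damaged protein was followed in the hypothalamus and eye of WT and Per3-/- mice. They comprise 2 cold-inducible RNA-binding genes, Cirbp and Rbm3, and 7 heat-shock genes, Hspa1b, Hspa8, Hsp90aa1, Hsph1, Dnajb1, Hspa5 and Hspb1. Members were taken by gene name, 9 of the 28146 names on the array, and 13 of its 41174 probes carried one of them. All 13 probes were well above background on all 30 arrays, and none was saturated on any.

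Cold-inducible RNA-binding proteins bind messenger RNA and are made in larger amounts when body or culture temperature falls mildly, so their transcripts follow the daily rhythm of body temperature. Heat-shock proteins are chaperones that hold, fold or clear unfolded protein, and several of their genes are switched on by heat-shock factor 1 when temperature rises or protein is damaged. The stress-inducible and the constitutive members of this family are regulated differently, and Hspa5 belongs to a separate response of the endoplasmic reticulum.

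The mice were adult males, Per3-/- or WT littermates on a C57Bl/6J background, housed singly and kept in 17 cycles of 3.5 h light and 3.5 h dark, with tissue taken in the light part of the last cycle. All 4 groups therefore shared the ultradian light schedule, and no group was kept on another schedule or at another temperature. The hypothalamus groups held 8 WT and 8 Per3-/- mice and the eye groups 7 and 7, with 1 array per mouse and tissue. Arrays with the same genotype and replicate number in the sample titles were taken as 1 mouse. On that basis 14 of the 16 mice were measured in both tissues. Hypothalamus here means a tissue block around the optic chiasm that includes the suprachiasmatic nuclei, and eye means the whole eye. In the Per3-/- line a resistance cassette replaces part of the gene, and altered Per3 mRNA can still be detected.

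Levels are log2 intensities relative to the 75th percentile of the array, so 0 is the intensity below which 75% of the probes on that array lie. The 75th percentile itself was between 1408 and 2207 intensity units in hypothalamus and between 1131 and 1644 in eye, and 68.0% to 80.8% of probes were well above background. The Per3 probe, on chromosome 4 (mm9, 150379256 to 150379315), ranged from -3.79 to -3.28 in WT and from -4.22 to -3.59 in Per3-/- hypothalamus, a difference of -0.51 (SE 0.09, limma adjusted p = 0.067), and differed by -0.45 (SE 0.23, adjusted p = 0.99999) in eye. Whether that probe lies in the replaced part was not determined here, so it does not check the labels. The 10 hypothalamus markers were well above background on all hypothalamus arrays, and the pigment epithelium gene Rpe65 on none, whereas all 8 retina markers and all 7 lens markers were above background on all eye arrays. In a whole tissue, fewer cells of a type and less RNA per cell cannot be told apart.

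The array reads each transcript through a probe of 60 bases, and the 2 probes of a gene can lie in different exons or transcript forms. The probes of Hspa8 and Dnajb1 are shown because the 2 probes of each gene gave different results in a comparison described below. They lie on chromosome 9 (40612674 to 40612733 and 40611142 to 40611201, plus strand) and on chromosome 8 (86135660 to 86135719 and 86134225 to 86134284, plus strand), all in mm9 coordinates from the array files.
Hspa8 A_51_P170371: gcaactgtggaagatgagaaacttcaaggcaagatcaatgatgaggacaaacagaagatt
Hspa8 A_52_P12877: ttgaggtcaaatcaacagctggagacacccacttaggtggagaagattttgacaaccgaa
Dnajb1 A_51_P153486: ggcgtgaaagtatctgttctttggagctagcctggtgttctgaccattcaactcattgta
Dnajb1 A_52_P171663: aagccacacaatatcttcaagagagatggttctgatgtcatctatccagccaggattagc

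The upstream sequences differ in the letters known from heat, cold and endoplasmic reticulum responses. RefSeq promoter windows (GRCm38.p6) were at hand for 6 of the 9 genes, those other than Rbm3, Hspa8 and Hsp90aa1. Each window ran from 250 bases before to 50 bases after the transcription start and was searched on both strands for facing heat-shock units (GAANNTTC or TTCNNGAA), for 3 such units (GAA and TTC alternating, with NN between neighbours, which contains the former), for the mild-cold element TCCCCGCC and for the endoplasmic reticulum stress element (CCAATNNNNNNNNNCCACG). Among 32851 promoters of the same length, 15.1% held the facing pair, 0.603% the 3 units, 5.38% the mild-cold letters and 0.119% the endoplasmic reticulum letters. Hspa1b, Hspb1 and Hsph1 held heat-shock units, Hspa5 held the endoplasmic reticulum element, and Cirbp, Hspa1b and Dnajb1 held the mild-cold letters. These are matches of letters and do not show binding.

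Windows are printed to 30 bases past the start for the genes on which the comparisons between mice turn, with matches in capitals. Cirbp lies on the plus strand at chr10:80167589-80167868 (first of 2 starts), Hspa1b on the minus strand at chr17:34959209-34959488, Hsph1 on the minus strand at chr5:149636286-149636565 (second of 2 starts), Hspa5 on the plus strand at chr2:34771840-34772119 and Hspb1 on the plus strand at chr5:135887669-135887948. In Hsph1 the capitals mark the 3 units, and a further facing pair 54 bases before the start is left in lower case. In Hspa1b they mark the mild-cold letters on the opposite strand, 137 bases before the start, and then the facing pair, 104 bases before it.
Cirbp: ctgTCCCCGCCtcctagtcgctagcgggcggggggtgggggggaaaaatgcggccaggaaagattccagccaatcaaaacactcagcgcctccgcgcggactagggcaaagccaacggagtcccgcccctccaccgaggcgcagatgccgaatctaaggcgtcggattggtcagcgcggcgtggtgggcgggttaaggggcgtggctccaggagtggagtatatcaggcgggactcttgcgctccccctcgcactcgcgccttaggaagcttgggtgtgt
Hspa1b: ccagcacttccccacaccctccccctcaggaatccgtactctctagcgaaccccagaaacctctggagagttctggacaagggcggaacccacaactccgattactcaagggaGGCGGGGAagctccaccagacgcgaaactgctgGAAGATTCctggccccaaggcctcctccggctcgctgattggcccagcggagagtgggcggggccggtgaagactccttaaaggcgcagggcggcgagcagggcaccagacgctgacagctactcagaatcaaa
Hsph1: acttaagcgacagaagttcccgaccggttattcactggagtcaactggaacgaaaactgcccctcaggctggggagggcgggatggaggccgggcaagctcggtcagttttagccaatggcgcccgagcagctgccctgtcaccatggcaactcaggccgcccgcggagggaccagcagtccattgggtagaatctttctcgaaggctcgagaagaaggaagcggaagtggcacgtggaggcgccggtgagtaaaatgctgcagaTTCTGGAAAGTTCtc
Hspa5: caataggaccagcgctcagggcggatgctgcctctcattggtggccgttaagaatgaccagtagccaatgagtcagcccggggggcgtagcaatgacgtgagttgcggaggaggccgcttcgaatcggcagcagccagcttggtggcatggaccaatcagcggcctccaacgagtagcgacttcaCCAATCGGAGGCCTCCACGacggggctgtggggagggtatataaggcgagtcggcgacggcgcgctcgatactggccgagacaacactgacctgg
Hspb1: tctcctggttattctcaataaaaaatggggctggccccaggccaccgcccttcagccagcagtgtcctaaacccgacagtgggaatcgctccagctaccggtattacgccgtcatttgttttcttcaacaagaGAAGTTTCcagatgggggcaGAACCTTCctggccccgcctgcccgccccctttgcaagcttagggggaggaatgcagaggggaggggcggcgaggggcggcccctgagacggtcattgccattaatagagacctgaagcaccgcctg

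Cirbp, which encodes the cold-inducible RNA-binding protein, was a little higher in eye than in hypothalamus. In hypothalamus its lowest, median and highest levels were 4.201, 4.26 and 4.34 in WT and 3.93, 4.16 and 4.37 in Per3-/- mice. The eye levels were 4.41, 4.51 and 4.75 in WT and 4.21, 4.47 and 4.75 in Per3-/- mice. Genotypes overlapped in both tissues, although 5 of the 8 Per3-/- hypothalami lay below every WT hypothalamus and 1 lay above all of them. The WT hypothalami were close together (SD 0.04, n = 8) and the Per3-/- hypothalami wider apart (SD 0.15, n = 8). The difference between WT eye and WT hypothalamus was 0.32 (SE 0.07, limma adjusted p = 0.00029), and the WT groups did not overlap.

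Rbm3, the closely related cold-inducible RNA-binding protein, was higher in eye, by 0.81 (SE 0.07, adjusted p = 2.7e-11). Its levels ran from 3.16 through a median of 3.29 to 3.50 in WT and from 3.11 through 3.18 to 3.31 in Per3-/- hypothalamus. In eye they ran from 3.84 through 4.10 to 4.41 in WT and from 3.84 through 4.04 to 4.25 in Per3-/- mice. No eye overlapped any hypothalamus, whereas the genotypes overlapped in each tissue. The second Rbm3 probe (A_52_P280360) was dim, with group means from -4.97 to -3.95. It was also higher in eye, by 1.001 (SE 0.21, adjusted p = 7.8e-05), but its WT groups overlapped and it did not pass with quantile normalization (0.35, adjusted p = 0.089).

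Hspa1b, the stress-inducible cytosolic HSP70, was among the members with the widest gap between the tissues. Its lowest, median and highest levels were -1.23, -0.90 and -0.36 in WT and -1.01, -0.75 and -0.37 in Per3-/- hypothalamus. Corresponding eye values were 2.04, 2.31 and 2.64 in WT and 1.82, 2.24 and 2.50 in Per3-/- mice. Every eye was far above every hypothalamus, and WT eye exceeded WT hypothalamus by 3.13 (SE 0.12, adjusted p = 1.8e-20), 8.78-fold. The second probe gave 3.53 (SE 0.13). The probes of the neighbouring near-identical gene Hspa1a followed Hspa1b across mice (r = 0.94 to 0.96 and rho = 0.87 to 0.96, permutation p at most 2e-05 for r). Whether the probes of 1 gene also read the transcript of the other was not tested, so the signals of the 2 genes are not separated here. In an ungapped comparison of the probe letters, at most 21 of 60 bases of a Hspa1a probe matched a Hspa1b probe, which does not show how well either probe binds the other gene's transcript.

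Hspa8, the constitutive cytosolic HSP70, did not pass the test between tissues on either probe. On the reported probe its levels ran from 6.40 through 6.66 to 6.81 in WT and from 6.48 through 6.64 to 6.81 in Per3-/- hypothalamus. In eye they ran from 6.47 through 6.58 to 6.72 in WT and from 6.47 through 6.69 to 6.74 in Per3-/- mice. All 4 groups overlapped. WT eye minus WT hypothalamus was -0.06 (SE 0.06, adjusted p = 0.32) on this probe and -0.01 (SE 0.06, adjusted p = 0.85) on the other, which turned to 0.12 with quantile normalization (adjusted p = 0.0875).

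Hspa5, the HSP70 of the endoplasmic reticulum also called BiP, was lower in eye. Its levels in hypothalamus were 4.56, 4.64 and 4.77 (lowest, median, highest) in WT and 4.53, 4.68 and 4.93 in Per3-/- mice. Eye levels were 4.05, 4.30 and 4.37 in WT and 4.10, 4.28 and 4.46 in Per3-/- mice. The WT groups of the 2 tissues did not overlap, and the difference was -0.41 (SE 0.07, adjusted p = 3.7e-06).

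Hsp90aa1, the inducible cytosolic HSP90, was moderately higher in eye. The WT hypothalami lay between 6.72 and 6.90 with a median of 6.80, and the WT eyes between 7.11 and 7.38 with a median of 7.22. The Per3-/- hypothalami lay between 6.74 and 6.94 over 7 mice, because the spot of mouse 1 was marked as an outlier and left out, and the Per3-/- eyes lay between 7.10 and 7.34. No eye overlapped a hypothalamus, and the WT difference was 0.44 (SE 0.04, adjusted p = 7.1e-10).

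Hsph1, the HSP110 that exchanges nucleotides on HSP70, had the opposite pattern and was far lower in eye. Its levels in hypothalamus were 5.21, 5.37 and 5.42 in WT and 5.18, 5.30 and 5.48 in Per3-/- mice. The values in eye were 2.80, 2.84 and 2.997 in WT and 2.65, 2.94 and 3.36 in Per3-/- mice. Tissues were widely separated, with a WT difference of -2.46 (SE 0.07, adjusted p = 1.3e-23), 5.51-fold. The Per3-/- eyes were more spread (SD 0.22, n = 7) than the WT eyes (SD 0.08, n = 7).

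Dnajb1, the J-protein also called HSP40 that delivers clients to HSP70, gave unequal differences on its 2 probes. The reported probe had WT levels of 5.09, 5.24 and 5.36 in hypothalamus and 5.23, 5.41 and 5.55 in eye, and Per3-/- levels of 5.13, 5.25 and 5.63 and of 5.33, 5.51 and 5.60. These groups overlapped, and the WT difference was 0.17 (SE 0.06, adjusted p = 0.013), which did not pass with normexp background correction (0.08, adjusted p = 0.35). The second probe had WT medians of 0.33 in hypothalamus and 1.82 in eye without overlap, a difference of 1.49 (SE 0.06, adjusted p = 1.1e-18).

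Hspb1, the small heat-shock protein HSP27, had the largest difference between the tissues among the 13 probes. Its levels in hypothalamus were 1.38, 1.68 and 2.25 in WT and 1.61, 1.75 and 2.52 in Per3-/- mice. In eye they were 5.33, 5.51 and 5.78 in WT and 5.06, 5.64 and 5.80 in Per3-/- mice. All eyes lay above all hypothalami, and the WT difference was 3.73 (SE 0.13, adjusted p = 7.5e-21), 13.3-fold.

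**Figure D1:**
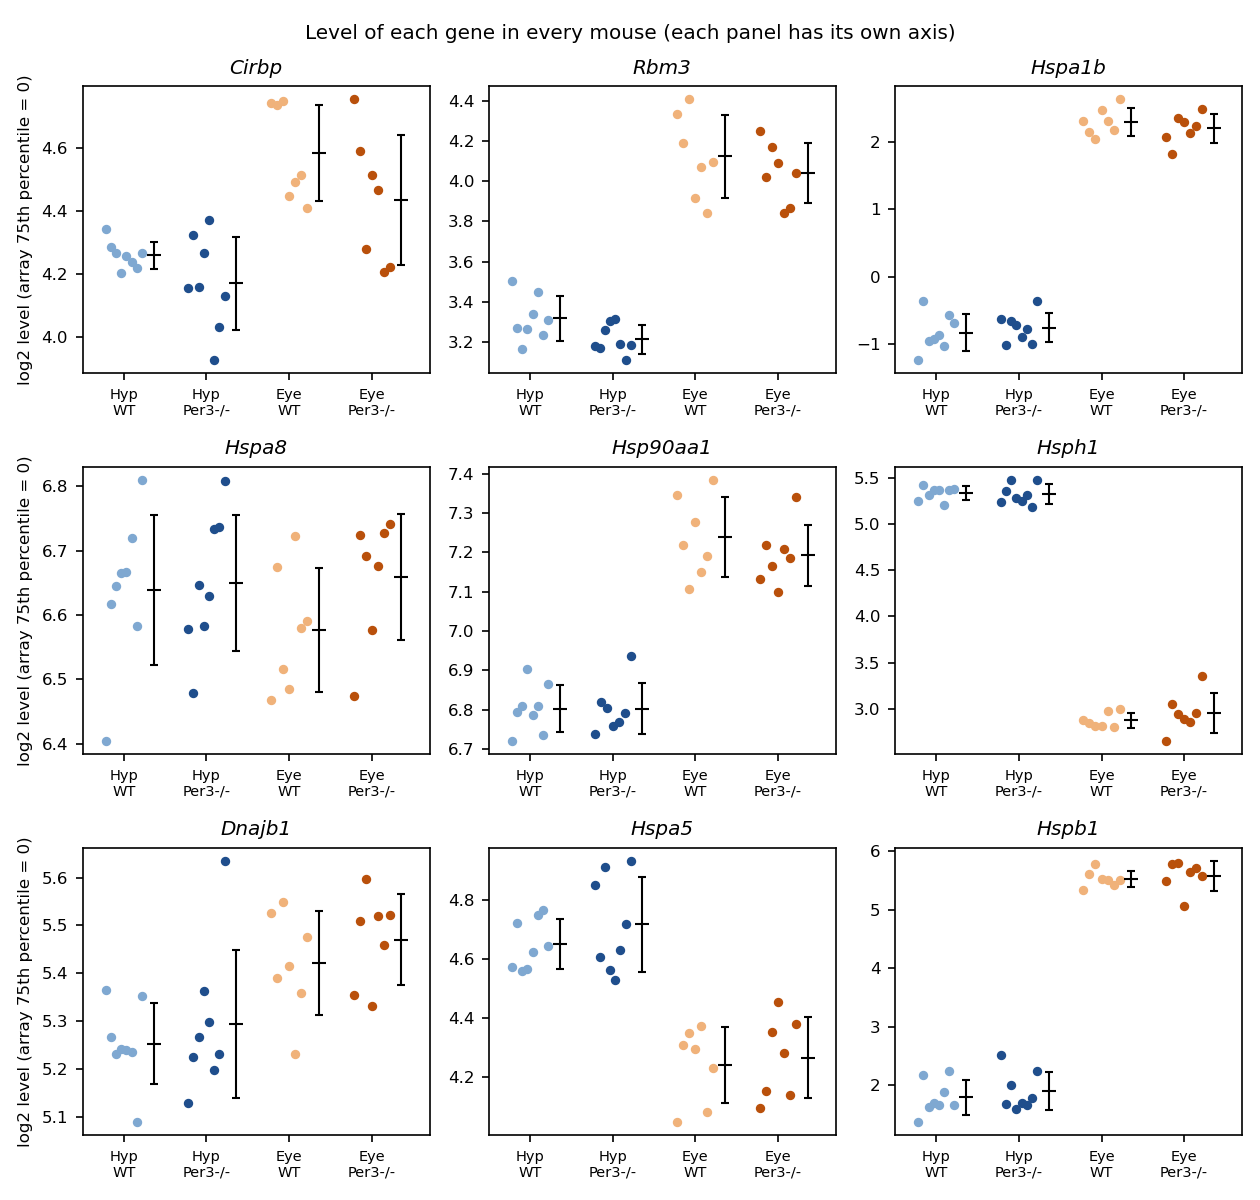
Log2 level (array 75th percentile = 0) of the reported probe of each gene, with 1 point per mouse and the group mean ± SD in black, for hypothalamus (Hyp, blue) and eye (orange) of WT and Per3-/- mice. Eye and hypothalamus are apart for Hspa1b, Hspb1 and Hsph1 in particular (WT differences of 3.13, 3.73 and -2.46), while WT and Per3-/- points overlap in every panel.

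Over the 13 probes, 9 were higher and 2 were lower in WT eye than in WT hypothalamus at an adjusted p under 0.05. Over all 41174 probes, 42.1% were higher and 33.6% were lower by the same rule, so a call between these tissues is common. The median difference was 0.16 over all probes, and -0.07 after quantile normalization of all arrays, and the reported Dnajb1 probe (0.17) lay close to the former. Cirbp was 0.50 higher in eye with quantile normalization and 0.41 higher with normexp. Normexp used the median signal of a spot in eye and the mean signal in hypothalamus, so its differences between tissues compare unlike measures. The tissues were on separate slides, and their scans were read with grids of different genome builds (mm8 in eye, mm9 in hypothalamus). Tissue, slide and grid therefore cannot be told apart, and batches of RNA extraction are not stated.

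**Figure D2:**
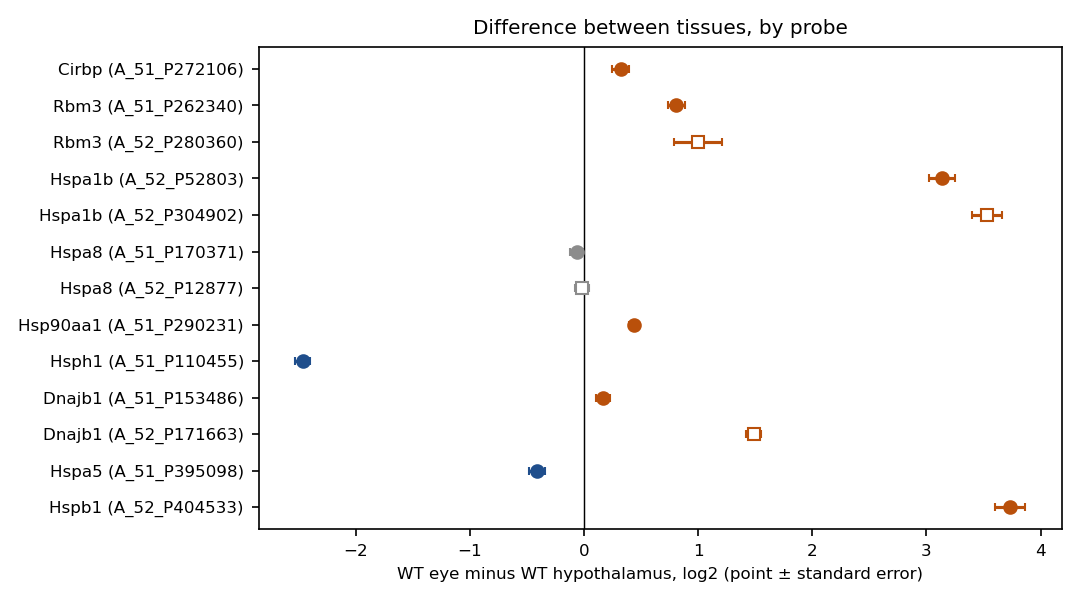
WT eye minus WT hypothalamus on the log2 scale for each of the 13 probes, with the standard error of the limma fit (circles, reported probes; open squares, second probes). Orange and blue mark probes that passed in the higher or lower direction, and the 2 Hspa8 probes in grey did not pass.

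Whether the loss of PER3 changed these genes was tested within each tissue. At an adjusted p under 0.05, 0 of the 13 probes differed between genotypes in hypothalamus, where 0.0413% of all probes did, and 0 of 13 in eye, where 0.0194% did. No member reached an unadjusted p under 0.05 in these limma fits either, against 2.82% of all probes in hypothalamus and 1.80% in eye. In eye 1 of the 13 probes did so with quantile normalization, with slide as a block, with the replicate block and with the methods' t-test. In hypothalamus 1 did so with the methods' t-test, and 1 among probes well above background only. With 1 mouse left out the count was at most 2, reached in hypothalamus without Per3-/- mouse 5 and in eye without Per3-/- mouse 2. Both cold-inducible genes were lower on their reported probes in Per3-/- mice of both tissues, by amounts that did not pass. The second, dim Rbm3 probe had the other sign, 0.13 (SE 0.23) in hypothalamus and 0.01 (SE 0.17) in eye. Cirbp differed by -0.09 (SE 0.06, adjusted p = 0.991) in hypothalamus and by -0.15 (SE 0.10, adjusted p = 0.99999) in eye. Rbm3 differed by -0.10 (SE 0.05, adjusted p = 0.991) in hypothalamus, the lowest unadjusted p of the members (0.057, limma; 0.043 by exact permutation of the mice), and by -0.08 (SE 0.10, adjusted p = 0.99999) in eye.

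Among the 10 heat-shock probes, 8 were higher in Per3-/- hypothalamus and 7 in Per3-/- eye, none past the test. The median over the 13 probes was 0.02 in both tissues, next to -0.01 and 0.00 over all probes. In hypothalamus the largest heat-shock value was that of Hspb1 (0.11, SE 0.15), and Hspa1b gave 0.07 (SE 0.12), Hspa5 0.07 (SE 0.07), Dnajb1 0.04 (SE 0.06) and Hspa8 0.01 (SE 0.06). Hsph1 gave -0.01 (SE 0.05) and Hsp90aa1 -0.0004 (SE 0.04). Without Per3-/- mouse 1 the Hspb1 value was 0.02, and without WT mouse 1 that of Hspa1b was 0.01, so the order of these values is not stable. The standard errors over the 13 probes ran from 0.04 to 0.23 in hypothalamus and from 0.06 to 0.17 in eye.

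In eye, Hspa8 was 0.08 higher (SE 0.06) on the reported and 0.15 higher (SE 0.07) on the second probe, on which 4 of 7 Per3-/- eyes lay above every WT eye (exact permutation p = 0.049, not adjusted). With normexp these values were 0.02 and 0.06. The reported probes of the other heat-shock genes gave values of similar or smaller size, none past the test: Hspa1b (-0.10, SE 0.11), Hsph1 (0.09, SE 0.09), Hspb1 (0.05, SE 0.11), Dnajb1 (0.05, SE 0.07), Hspa5 (0.02, SE 0.08) and Hsp90aa1 (-0.05, SE 0.06). The adjusted p was 0.99999 for each. Whether the genotype difference itself differed between tissues was tested in a joint fit, in which 0.00486% of all probes and 0 of the 13 member probes passed. The largest such difference among the 13 was -0.17 (SE 0.16), for Hspa1b.

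Since every one of the 4 slides per tissue carried WT and Per3-/- arrays, differences could be read within slides. Cirbp was lower in Per3-/- on 4 of 4 hypothalamus slides (differences from -0.16 to -0.02) and on 2 of 4 eye slides (from -0.31 to 0.02). Rbm3 was lower on 3 of 4 hypothalamus slides and on 4 of 4 eye slides (from -0.21 to -0.02). Such counts were not particular to the cold-inducible genes. In eye Hspa1b was also lower on 4 of 4 slides (from -0.25 to -0.01), and Hspa8 was higher on 4 of 4 (from 0.006 to 0.15). With slide as a block Cirbp in eye differed by -0.15 (SE 0.07, unadjusted p = 0.065 and adjusted p = 0.99999, limma).

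**Figure D3:**
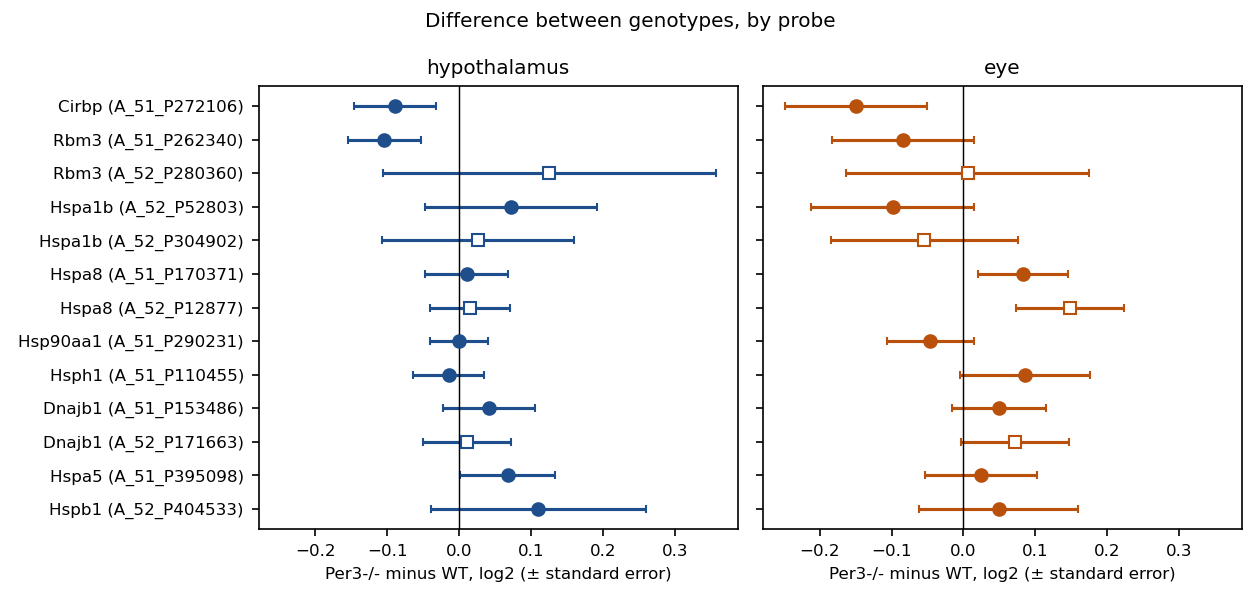
Per3-/- minus WT on the log2 scale for the 13 probes in hypothalamus (left, 8 against 8 mice) and eye (right, 7 against 7), with the standard error of the limma fit (circles, reported probes; open squares, second probes). The reported probes of Cirbp and Rbm3 lie left of 0 in both panels, and no probe passed the test.

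Whether cold-inducible and heat-shock genes moved in opposite directions from mouse to mouse was examined on each mouse's deviation from the mean of its genotype. There were 36 pairs of members in each tissue, thus 72 relations, of which 28 paired a cold-inducible with a heat-shock gene. The median r of those pairs was -0.25 in hypothalamus, with 12 of 14 pairs negative, and -0.17 in eye, with 11 of 14 negative. With slide means removed the medians were -0.12 (11 of 14 negative) and -0.20 (10 of 14). Within WT mice alone they were -0.34 (11 of 14) in hypothalamus and -0.08 (8 of 14) in eye. Within Per3-/- mice alone they were -0.18 (9 of 14) and -0.36 (12 of 14), and whether the genotypes differed in this was not tested. The pairs share genes and arrays and are not independent. In eye the median turned to 0.26 with normexp background correction, where the array of Per3-/- mouse 6 was the lowest of the 14 eyes for 8 of the 9 reported probes, and was -0.20 without that array. Without WT mouse 1 the hypothalamus median was -0.09, and the eye median was -0.10 without Per3-/- mouse 2, -0.26 without WT mouse 4 and -0.30 without WT mouse 7. As a background, Cirbp had a median r of 0.02 with the 27153 other probes above background in hypothalamus and of -0.07 with 27891 in eye. Rbm3 had a median r of 0.03 and -0.03. Of these probes 48.0% in hypothalamus and 55.7% in eye had a negative r with Cirbp, and 46.0% and 52.4% with Rbm3. Of the 28 pairs, 3 had an unadjusted permutation p under 0.05, and 0 passed after adjustment over the 72 relations.

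Cirbp and Hspa1b in eye gave the most negative pair. Across 14 mice r was -0.71 (permutation p = 0.0076, adjusted p = 0.11) and rho was -0.79 (permutation p = 0.0017, adjusted p = 0.062). Without the 2 mice farthest from the Cirbp median r was -0.79, and it was -0.74 among WT (exact p = 0.065) and -0.70 among Per3-/- mice (exact p = 0.073). The second Hspa1b probe gave -0.72. With normexp it was -0.17, and -0.69 when the array of Per3-/- mouse 6 was left out as well. The relation did not pass the adjustment, and 2.33% of the 27891 probes had a lower r with Cirbp in eye.

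The mean Cirbp level in eye was 4.75 on slide 1, which held 2 arrays, and 4.59, 4.48 and 4.34 on slides 2, 3 and 4. Hspa1b was 2.20, 2.09, 2.31 and 2.39 on the same slides. With the slide means removed r between the genes was -0.70 (permutation p = 0.028, adjusted p = 0.28). In eye, Hspa1b also correlated with the summed level of the retina markers (r = -0.64, permutation p = 0.016, rho = -0.66, permutation p = 0.017). It did so with the lens markers (r = -0.59, permutation p = 0.036, rho = -0.57) and the ocular surface markers (r = 0.63, permutation p = 0.019, rho = 0.59). Without the 2 farthest mice r was -0.69, -0.57 and 0.51. None of these passed adjustment over 216 relations of members with marker lists and array measures (adjusted p = 0.35 to 0.43). Cirbp had the opposite signs with the same 3 sums in eye. These were r = 0.46 for retina (permutation p = 0.087, rho = 0.46), 0.39 for lens (permutation p = 0.21, rho = 0.51) and -0.45 for ocular surface (permutation p = 0.11, rho = -0.55). Without the 2 farthest mice they were 0.38, 0.55 and -0.21, and none passed adjustment (adjusted p = 0.59 to 0.74). The summed levels ranged from 8.89 to 9.24 for retina, from 9.65 to 10.36 for lens and from 8.71 to 9.31 for ocular surface over the 14 eyes, and their part in the relation was not tested. Hspb1 in eye had r = 0.79 with the lens markers (permutation p = 0.0035, rho = 0.65, adjusted p = 0.35), and 0.50 without the 2 farthest mice.

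Cirbp and Hspa8 in hypothalamus had r = -0.56 across 16 mice (permutation p = 0.018, adjusted p = 0.14) and rho = -0.57 (permutation p = 0.032, adjusted p = 0.32). It was -0.66 without the 2 mice farthest from the Cirbp median, -0.56 in WT (exact p = 0.14), -0.68 in Per3-/- mice (exact p = 0.062) and -0.41 with slide means removed. The second Hspa8 probe gave the other sign, r = 0.30, and the 2 Hspa8 probes had no clear relation in hypothalamus (r = -0.13, permutation p = 0.63, rho = -0.26) and had a positive r in eye (r = 0.73, permutation p = 0.005, rho = 0.63). The hypothalamic relation therefore rests on 1 of the 2 probes whose sequences are given above. Other measures moved with the pair in hypothalamus. The log2 75th percentile of the array had r = 0.47 with Cirbp (permutation p = 0.021, rho = 0.52) and r = -0.44 with Hspa8 (permutation p = 0.11, rho = -0.48). The summed immediate early genes had r = -0.58 with Cirbp (permutation p = 0.074, rho = -0.49) and r = 0.53 with Hspa8 (permutation p = 0.03, rho = 0.70), and the skeletal muscle markers r = 0.47 (permutation p = 0.086, rho = 0.31) and r = -0.57 (permutation p = 0.027, rho = -0.45). None passed adjustment over the 216 relations, and their part in the relation was not tested.

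Cirbp and Hsph1 in eye had r = -0.59 (permutation p = 0.049, adjusted p = 0.24) and rho = -0.47 (permutation p = 0.12). It was -0.35 with slide means removed, 0.02 with normexp (-0.56 without the array of Per3-/- mouse 6) and -0.81 with quantile normalization (adjusted p = 0.028). In hypothalamus the same pair had r = -0.03. Cirbp was negative with each of the 7 heat-shock genes in eye and with 6 of 7 in hypothalamus, the exception being Dnajb1 (0.18). Rbm3 was negative with 4 of 7 in eye and with 6 of 7 in hypothalamus, where again Dnajb1 was positive (0.28). These signs are of the reported probes. The second Dnajb1 probe gave 0.06 with Cirbp in eye and -0.07 with Rbm3 in hypothalamus.

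The 2 cold-inducible genes had positive correlations that did not pass adjustment. Cirbp and Rbm3 had r = 0.42 in hypothalamus (permutation p = 0.044, adjusted p = 0.24, rho = 0.39) and r = 0.59 in eye (permutation p = 0.028, adjusted p = 0.20, rho = 0.54). With slide means removed r was 0.43 in hypothalamus and -0.02 in eye, and with the mean of both Rbm3 probes it was -0.14 in hypothalamus. With slide means removed 1 of the 72 relations passed, that of Rbm3 and Hspa5 in eye, which were then positive (r = 0.88, adjusted permutation p = 0.047). Without that removal their r was 0.10 (permutation p = 0.74).

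**Figure D4:**
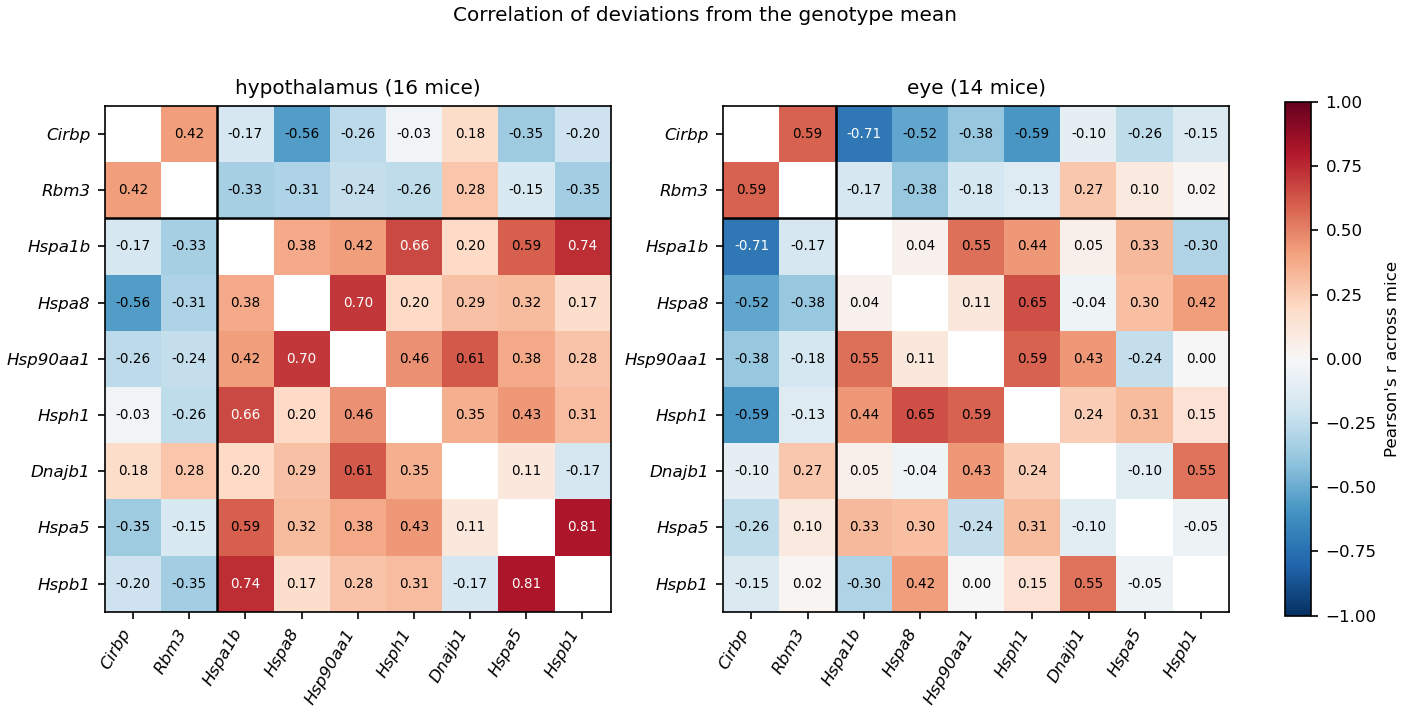
Pearson's r across mice between the deviations of each pair of genes from their genotype means, in hypothalamus (16 mice, 15 for Hsp90aa1) and eye (14 mice). Black lines part the cold-inducible from the heat-shock genes, and the blocks between them are mostly negative (12 and 11 of 14) while the heat-shock block is mostly positive (20 and 15 of 21).

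Most pairs of heat-shock genes had a positive r over both genotypes together. Of 21 heat-shock pairs 20 were positive in hypothalamus (median r = 0.38) and 15 in eye (median r = 0.24), and whether the tissues differed was not tested. Within WT mice alone the median was 0.18 in hypothalamus (7 of 21 negative) and -0.02 in eye (11 of 21 negative). Within Per3-/- mice alone it was 0.59 (0 of 21 negative) and 0.42 (2 of 21 negative). Whether the genotypes differed in this was not tested. With a given heat-shock gene, 45.0% to 55.3% of the other probes above background had a negative r in hypothalamus. The share was 43.6% to 55.1% in eye. The number of the 72 relations that passed adjustment was 1, and it was 6 with quantile normalization, 7 with normexp and 4 with normexp without the eye array of Per3-/- mouse 6. The strongest pair, and the one that passed, was Hspa5 with Hspb1 in hypothalamus, at r = 0.81 (permutation p = 0.00038, adjusted p = 0.027) and rho = 0.83 (permutation p = 0.00045, adjusted p = 0.032). It was 0.85 without the 2 mice farthest from the Hspa5 median, 0.85 in WT (exact permutation p = 0.0059) and 0.83 in Per3-/- mice (exact permutation p = 0.011). With slide means removed it was 0.79 (adjusted p = 0.065), and its adjusted p ranged from 0.0022 to 0.065 when 1 mouse was left out, the highest without WT mouse 7. In eye the same pair had r = -0.05 (permutation p = 0.88).

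Other hypothalamic pairs were Hspa1b with Hspb1 (r = 0.74, permutation p = 0.0015, adjusted p = 0.055), Hspa1b with Hsph1 (r = 0.66, permutation p = 0.0042, adjusted p = 0.099) and Hspa8 with Hsp90aa1 over 15 mice (r = 0.70, permutation p = 0.0055, adjusted p = 0.099). The corresponding rho values were 0.62, 0.62 and 0.61. The share of probes with a lower r with the first gene of the pair was 99.9%, 99.6% and 94.9%. Of the 3 genes whose promoter windows held heat-shock units, Hspa1b was in both of the first pairs, while Hsph1 with Hspb1 had r = 0.31 (permutation p = 0.28, rho = 0.29). Hspa5, whose window held the endoplasmic reticulum element, had r = 0.59 with Hspa1b (permutation p = 0.0094, rho = 0.54, adjusted p = 0.11). In eye the pair of Hspa1b and Hspb1 had r = -0.30, and the leading heat-shock pairs there were Hspa8 with Hsph1 (r = 0.65, permutation p = 0.015, rho = 0.57, adjusted p = 0.14) and Hsp90aa1 with Hsph1 (r = 0.59, permutation p = 0.016, rho = 0.53, adjusted p = 0.14). The latter rested on 2 mice, without which r was 0.19.

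Marker levels of other tissue were set beside the hypothalamic pairs. The summed level of pituitary markers ranged from -0.06 to 5.36 in WT and from -0.24 to 9.62 in Per3-/- hypothalamus, so some blocks carried far more of that RNA than others. Hspb1 had r = 0.48 (permutation p = 0.068, rho = 0.28) with the pituitary markers and Hspa5 had r = 0.22 (permutation p = 0.65). Choroid plexus markers ranged from 1.19 to 4.37 over all hypothalami, with r = -0.02 for Hspb1 and r = 0.12 for Hspa5. Hspa1b and Hsph1 each had r = 0.64 with the low lens marker sum in hypothalamus (0.49 to 1.46, permutation p = 0.007 and 0.013, adjusted p = 0.35 for both). Of the 7 lens genes, 2 were well above background on all of those arrays, and Lim2 and Mip on none. The part of these tissues in the relations was not tested.

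**Figure D5:**
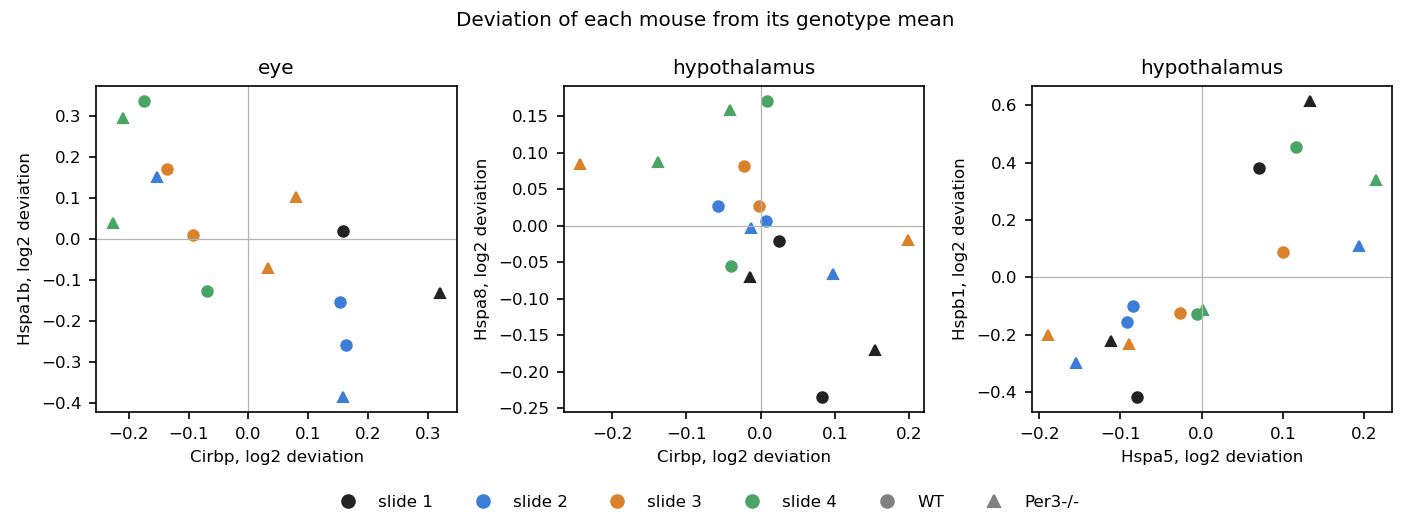
Deviation of each mouse from its genotype mean on the log2 scale for Cirbp against Hspa1b in eye, Cirbp against Hspa8 in hypothalamus and Hspa5 against Hspb1 in hypothalamus, with colour for the slide, circles for WT and triangles for Per3-/-. The points fall from left to right in the first 2 panels (r = -0.71 and -0.56) and rise in the last (r = 0.81).

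With mice matched by genotype and replicate number, 14 could be compared between tissues. Hspa8 had the highest correlation between the eye and the hypothalamus of a mouse (r = 0.63, permutation p = 0.02, rho = 0.56, adjusted p = 0.18 over the 9 genes), and r was 0.49 without the 2 mice farthest from the median in eye. Dnajb1 had r = 0.38 (permutation p = 0.19) with rho = 0.60 (permutation p = 0.022, adjusted p = 0.20), and Cirbp had r = 0.35 (permutation p = 0.31), which was 0.05 without the 2 farthest mice. Hspa5 (r = -0.17) and Hspb1 (r = 0.07) had permutation p = 0.58 and 0.79. None of the 9 passed the adjustment. Mice that shared a slide in 1 tissue also shared a slide in the other, so mouse and slide cannot be told apart in these values. Mean Hspa8 was 6.52, 6.64, 6.69 and 6.73 on hypothalamus slides 1 to 4 and 6.47, 6.65, 6.62 and 6.66 on eye slides 1 to 4. The correlation with slide means removed was not tested.

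None of the 5 genes most like Cirbp or Hsph1 across mice in either tissue was a member. In hypothalamus the 5 highest correlations with Cirbp over 16 mice were those of Wdr12, a ribosome assembly factor (0.87), Prkar2b, a regulatory subunit of protein kinase A (0.85), Clstn3 (0.83), Epm2aip1 (0.83) and the proteasome subunit gene Psmd6 (0.82), with Rbm3 at rank 3500 of 27153. In eye they were Drd4, the D4 dopamine receptor (0.94), Mzf1 (0.93), the host gene Mir124-2hg (0.92), Phf1 (0.91) and Adam7 (0.91) over 14 mice, with Rbm3 at rank 1432 of 27891. For Hsph1 the list in hypothalamus held AK051578 (0.86), Vmp1 (0.81), Neurog2 (0.81), Gpatch1 (0.80) and Hspd1, the mitochondrial chaperonin HSP60 (0.79), with Hspa1b at rank 119. In eye it held Arl8b (0.92), Kcmf1 (0.92), Wdr46 (0.90), 2310057M21Rik (0.88) and Nuak1 (0.87), with Hspa8 at rank 821. These are the highest of 27153 and 27891 values and are given with no test.

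The wider chaperone and RNA-binding network held no genotype difference at an adjusted p under 0.05. None of 63 probes of 32 cytosolic chaperone and co-chaperone genes, 13 probes of 8 small heat-shock protein genes, 11 probes of 7 mitochondrial chaperone genes, 43 probes of 22 endoplasmic reticulum chaperone and stress genes, 9 probes of 4 heat-shock factor genes and 40 probes of 14 RNA-binding and splicing genes passed in either tissue or direction. In hypothalamus 1, 0, 0, 0, 1 and 1 probes of these lists had an unadjusted p under 0.05, and in eye 0, 0, 0, 3, 0 and 2. Over all probes the share with such a p was 2.82% in hypothalamus and 1.80% in eye, and the counts over the 179 list probes come to 3 and 5 (1.68% and 2.79%). Those with the lowest p were, in hypothalamus, Hsf4, a heat-shock factor (-0.25, SE 0.08), the HSP70-binding cofactor St13 (0.13, SE 0.05) and the splicing regulator Rbm4 (0.11, SE 0.05). In eye they were Xbp1, a transcription factor of the unfolded protein response (0.23, SE 0.07), Edem1, which acts in degradation of misfolded glycoproteins (0.21, SE 0.07), and the splicing factor genes Srsf5 (-0.26, SE 0.09) and Hnrnpdl (-0.19, SE 0.07). The adjusted p was 0.991 in hypothalamus and 0.99999 in eye for all of these.

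Between the tissues the calls of each list are read beside the 42.1% higher and 33.6% lower of all probes. Of the small heat-shock protein probes 11 of 13 were higher in WT eye and 1 was lower, with a median difference of 2.80, in the direction of Hspb1. The list holds Cryaa and Cryab, alpha-crystallins abundant in the lens. Of the endoplasmic reticulum list 10 probes were higher and 27 lower in eye (median -0.54), as Hspa5 was. The cytosolic chaperones had 21 higher and 36 lower (median -0.25), the mitochondrial chaperones 1 and 8 (median -0.25) and the heat-shock factors 2 and 7 (median -0.79). The RNA-binding and splicing list had 26 higher and 7 lower (median 0.37), the direction of Cirbp and Rbm3.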

How the data were processed

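RNA of 16 hypothalamic blocks and 14 eyes was hybridised by the authors to Agilent arrays with 1 label (Cy3), 1 array per sample, on 4 slides per tissue that each held both genotypes. The deposited intensity values are background-subtracted, detrended signals from Feature Extraction 10.7.1.1, not normalized between arrays, and the authors' log2 values, an alternative here, were centred on each probe's median. Spots marked as non-uniformity or population outliers were left out (at most 91 per array). Processed intensities were taken to log2 minus the array's 75th percentile. Precision is limited by the number of arrays. Differences were tested with limma 3.58.1 in R 4.3.3 (lmFit, eBayes) over all 41174 probes with Benjamini-Hochberg adjustment, genotype within tissue, and tissue and interaction with the mouse as a random block. Relations across mice used 100000 permutations within genotype (two-sided; exact within 1 genotype), adjusted over 72 relations. The smallest p they can give is 1e-05. The reported probe of a gene was its brightest. Scripts were tested on simulated data.

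Probe positions (mm9) and gene names came from the hypothalamus array files, updated through RefSeq accessions for the lists. Members, lists and rules were chosen with earlier results of these data known. For each list up to 2 probes of lowest p per tissue were eligible to be named, and for Cirbp and Hsph1 the 5 genes of highest r. Whether all mice came from separate litters is not stated, so p-values measure the spread between these mice. Alternatives were quantile and normexp (offset 50) processing, a background filter, slide and replicate blocks, the methods' t-test, the authors' log2 values, other probes and omission of each mouse. Normexp started from the median signal of each spot in eye and the mean signal in hypothalamus, and kept outlier spots.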

Additional observations from a re-analysis of the deposited data

Results flagged for a closer look

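Of 52 groups of values (13 probes in 4 groups), 3 held a mouse far from the others of its group, by the gap to its nearest neighbour relative to the range of the group. About 1 group in 20 is marked in this way by chance. In hypothalamus, Per3-/- mouse 8 had the highest Hsp90aa1 level (6.94, the next being 6.82) and the highest Dnajb1 level (5.63, the next being 5.36) of its group. Without that mouse the Dnajb1 difference between genotypes in hypothalamus was -0.01, and the correlation of Hsp90aa1 with Dnajb1, 0.61 over 15 mice (permutation p = 0.036, adjusted p = 0.24), was at its lowest (0.23) among the fits that left out 1 mouse. In eye, Per3-/- mouse 5 had the lowest Hspb1 level (5.06, the next being 5.48).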

How the results depend on the processing

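The count of members that differed between genotypes was 0 in both tissues under every alternative tried, including the replicate block (0 and 0), the methods' t-test and omission of any mouse (0 to 0), and the replicate block changed no call of a member. Mice of the same number correlated in their deviations at -0.20 to 0.40 over 8 numbers in hypothalamus, and in eye at 0.32 to 0.68 for 5 numbers and 0.002 for the other. Not every pair was above 0.1, so the numbers were not taken to pair the mice, but same-numbered mice share slides. With the replicate block the probes called over the whole array were 5 in place of 17 in hypothalamus and 1 in place of 8 in eye. Between tissues 10 of 13 probes passed with quantile or normexp processing and 11 otherwise. The median r of cold-inducible with heat-shock genes ranged from -0.29 to -0.09 in hypothalamus and from -0.30 to -0.10 in eye when 1 mouse was left out. It moved to -0.054 in hypothalamus with the mean of all probes of a gene and to -0.36 in eye in Per3-/- mice alone, each by more than the jackknife standard error over mice (0.18 and 0.16). In eye in WT mice alone it was -0.08. In eye it turned to 0.26 with normexp. There the array of Per3-/- mouse 6 was the lowest for 8 of the 9 reported probes, and without it, a choice made after seeing the data, the median was -0.20. Cirbp with Hsph1 in eye was 0.023 with normexp and -0.56 without that array.

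Values near 0 turned sign. Genotype differences in hypothalamus were 0.020 for Hsp90aa1 with quantile processing, and ranged without 1 mouse from -0.023 to 0.035 for Hspa8 (second probe -0.011 to 0.048), from -0.023 to 0.014 for Hsp90aa1, from -0.037 to 0.0054 for Hsph1 and from -0.0076 to 0.065 for Dnajb1. In eye they were -0.016 for Dnajb1 and -0.014 for Hspb1 with normexp, and ranged from -0.0076 to 0.053 for Hspa5 without 1 mouse. The difference of the genotype effect between tissues became -0.036 for Rbm3 with normexp and -0.00795 and -0.052 for Dnajb1 with quantile and normexp. The second Hspa8 probe differed between tissues by 0.12 with quantile processing. Cirbp with Rbm3 was -0.14 in hypothalamus with the mean of all probes, which includes a dim probe, and -0.019 in eye with slide as a block. Omission of WT mouse 7 raised the adjusted permutation p of Hspa5 with Hspb1 from 0.027 to 0.065. The causes were not tested. Dim probes, such as the second of Rbm3, are limited by signal over background.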
